A study of Mus musculus with 8 samples.

Results

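The cytochrome P450 (Cyp) genes measured in colonic tumors of MDR1A KO and WT mice numbered 90, out of 22180 genes with a probe set of their own on the array. They were chosen by name: probe sets with exactly 1 gene symbol made of Cyp, a number and, where present, a letter and a further number, without pseudogenes. A gene with more than 1 such probe set was represented by the one with the highest mean signal over the 8 arrays. Of the 95 genes that fit this pattern in a reference gene table of the mouse, Cyp19a1, Cyp2c67, Cyp2j7, Cyp4a10 and Cyp4a32 had no probe set of their own. Another 4 P450 genes whose symbols fall outside the pattern (Cyp2ab1, Cyp4a12a, Cyp4a12b and Cyp4a30b) were left out, and none of them reached an unadjusted p under 0.05.

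The MDR1A KO tumors came from 4 FVB/N mice that lack Abcb1a in all cells, and the WT tumors from 4 FVB/N mice, with 1 adenoma and 1 array per mouse. All mice were males that received a single dose of azoxymethane (AOM, 10 mg/kg), a colon carcinogen, at 6 weeks of age and 3 cycles of 7 days of 2.5% dextran sulfate sodium (DSS), which injures the colonic epithelium, and tumors were excised on day 84. The control mice therefore carried the same carcinogen and colitis treatment, and no untreated tissue was analysed here. RNA was isolated with either of 2 kits, and the tumors processed with each kit are not named.

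P450 enzymes are heme proteins that insert an oxygen atom into small molecules. Most sit in the endoplasmic reticulum and take electrons from P450 reductase, while a few work in mitochondria with ferredoxin. Families 1 to 3 are best known for the oxidation of drugs, carcinogens and other foreign compounds, family 4 for fatty acids and eicosanoids, and the higher families for cholesterol, bile acids, steroid hormones, vitamin D and retinoic acid. Abcb1a encodes P-glycoprotein, an efflux pump of the intestinal epithelium that shares many substrates with family 3 enzymes, and AOM itself is activated by Cyp2e1, chiefly in the liver.

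All values are log2 signals after RMA, the array's background correction, quantile normalization and probe summary, so 1 unit is a 2-fold difference. They compare tumors for 1 probe set and not the abundance of different genes. Abcb1a had signals of 6.14, 6.13, 6.37 and 6.87 in MDR1A KO tumors, against 8.69, 9.10, 9.46 and 8.93 in WT tumors. The MDR1A KO minus WT difference of −2.67 (SE 0.20) had an adjusted p of 0.00599 in limma. The mean signal of 6 epithelial markers was 10.45 to 10.70 in MDR1A KO tumors and 10.72 to 10.83 in WT tumors, so the labelled tissue carried its markers in every tumor. Every MDR1A KO tumor was nonetheless below every WT tumor, and all 6 markers had their lower mean in MDR1A KO tumors. Cdx2 alone reached an unadjusted p under 0.05 (log2 fold change −0.65, SE 0.25, limma, unadjusted p = 0.0307). That is 16.7% of the 6 markers, beside 6.46% of all genes. The part of epithelial content in the P450 values was not tested. Within their own group the MDR1A KO arrays correlated at 0.985 to 0.986 on average and the WT arrays at 0.973 to 0.979. Of the 90 P450 probe sets, 53 lay in the lowest 33.3% of named probe sets by mean signal (under 5.06), where little or no transcript may be measured. They are called dim, and 37 lay above them.

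As a family the P450 genes differed little between the genotypes. The mean was higher in MDR1A KO tumors for 35 genes (38.9%, beside 50.8% of all genes) and lower for 55. Among the dim genes 18 were higher and 35 lower, and above them 17 were higher and 20 lower. The median log2 fold change was −0.05, against 0.00 over all genes, and single genes ran from −0.73 to 1.10. At an unadjusted p under 0.05, 8 genes were counted, which is 8.89% of the family beside 6.46% of all genes. Of these 8, 4 were higher in MDR1A KO tumors (3.73% of all genes were) and 4 were lower (2.72% of all genes were). No P450 gene had an adjusted p under 0.05 in limma, beside 0.018% of all genes, and the lowest was 0.610. No P450 gene combined an unadjusted p under 0.05 with a 2-fold change, beside 0.248% of all genes. The 2 groups of tumors did not overlap for 5 P450 genes, or 5.56%, beside 3.73% of all genes. Above the lowest 33.3% the share at an unadjusted p under 0.05 was 10.8% (4 of 37 P450 genes), beside 7.09% of all genes there. The counts at these thresholds and of groups apart thus lay near the background of the arrays.

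**Figure D1:**
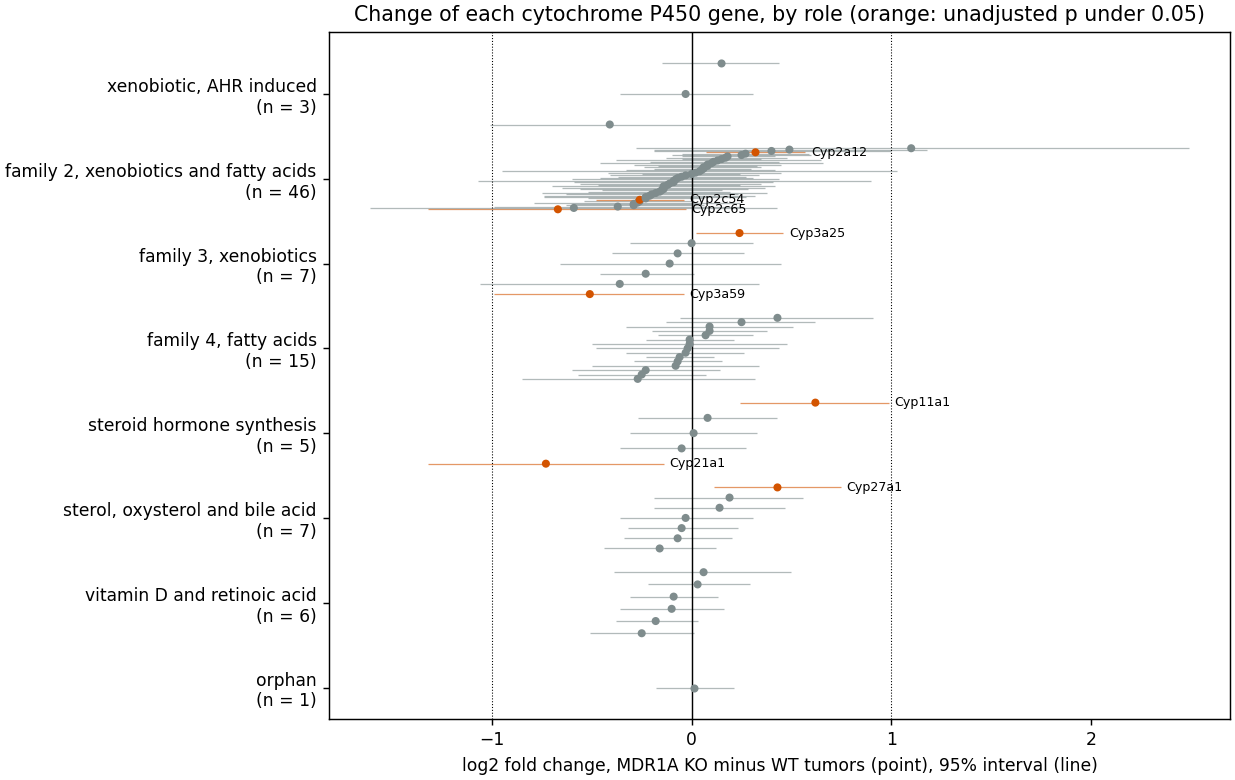
Each point is 1 of the 90 P450 genes, placed by its log2 fold change (MDR1A KO minus WT tumors, 4 of each) on the horizontal axis and by its role on the vertical axis; lines are 95% intervals, dotted lines mark a 2-fold change, and orange marks an unadjusted p under 0.05. The 8 orange genes are spread over 4 roles and both directions, and only Cyp2f2, at 1.10, lies beyond a 2-fold change, with an interval from −0.28 to 2.49.

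Among the enzymes of steroid hormone synthesis, Cyp11a1 had the smallest p of the family. It encodes the mitochondrial side-chain cleavage enzyme that opens steroid synthesis from cholesterol. Its signals were 7.16, 7.60, 7.22 and 7.13 in MDR1A KO tumors, against 6.98, 6.80, 6.25 and 6.60 in WT tumors. Every MDR1A KO tumor lay above every WT tumor. The log2 fold change was 0.62 (SE 0.17, 95% interval 0.24 to 0.99, limma, unadjusted p = 0.00461, adjusted p = 0.610), and an exact two-sided permutation test over the 70 splits of the tumors gave 0.029, the smallest p it allows. A second, less bright Cyp11a1 probe set did not show this difference, with 5.65, 6.04, 5.77 and 5.31 in MDR1A KO tumors and 5.58, 5.19, 5.59 and 6.07 in WT tumors (log2 fold change 0.09, SE 0.20, unadjusted p = 0.672). The mean of both probe sets gave 0.35 (unadjusted p = 0.0391, limma).

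RefSeq lists 2 start windows for Cyp11a1 (GRCm38.p6), each from 250 bases before to 50 bases after the start. The one printed here, chr9:58014702-58015001 on the plus strand, is shown because it alone of the 2 holds one of the 4 motifs searched, the nuclear receptor half-site AGGTCA (capitals), at −28 to −23 from the start.
Cyp11a1: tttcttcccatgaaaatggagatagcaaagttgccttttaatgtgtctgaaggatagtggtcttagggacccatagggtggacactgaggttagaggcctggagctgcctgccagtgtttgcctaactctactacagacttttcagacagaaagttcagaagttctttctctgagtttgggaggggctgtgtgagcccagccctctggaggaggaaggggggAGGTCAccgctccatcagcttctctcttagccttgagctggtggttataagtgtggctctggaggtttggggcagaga
The half-site, read on both strands, was present in 16.3% of all 32851 windows of this length and in 26.9% of the 78 windows of P450 genes. A match of letters is a description and not a binding site.

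Cyp21a1, the hydroxylase that leads toward glucocorticoids and mineralocorticoids, was the member with the largest decrease in mean. It had 5.37, 5.56, 5.94 and 5.73 in MDR1A KO tumors and 5.96, 7.14, 5.89 and 6.53 in WT tumors. The high values were WT tumors 2 and 4, and the groups overlapped at MDR1A KO tumor 3. The log2 fold change was −0.73 (SE 0.26, limma, unadjusted p = 0.0207) and the exact permutation p was 0.057. Without MDR1A KO tumor 1 it was −0.64 (unadjusted p = 0.0563), and without WT tumor 2 it was −0.48 (unadjusted p = 0.0349). A near-identical pseudogene, Cyp21a2-ps, lies on the same chromosome, and its share of this signal is unknown. The other steroid enzymes were dim: Cyp11b1, which makes corticosterone, had 4.11 to 4.57 in MDR1A KO tumors and 4.14 to 4.61 in WT tumors (log2 fold change −0.05, 95% interval −0.36 to 0.27), and Cyp17a1 and Cyp11b2 differed by 0.08 and 0.01. Of 9 further steroid synthesis genes, 0 reached an unadjusted p under 0.05.

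The sterol, oxysterol and bile acid enzymes held the second bright gene whose groups were apart. Cyp27a1, the mitochondrial enzyme that hydroxylates the cholesterol side chain, had 8.62, 8.34, 8.19 and 8.21 in MDR1A KO tumors, against 7.99, 8.06, 7.54 and 8.05 in WT tumors. All 4 MDR1A KO tumors were above all 4 WT tumors, of which WT tumor 3 was the lowest. The log2 fold change was 0.43 (SE 0.14, 95% interval 0.11 to 0.75, limma, unadjusted p = 0.0149, adjusted p = 0.717). Macrophages are known to express Cyp27a1, and all 10 macrophage markers had their higher mean in MDR1A KO tumors. For 6 of the markers (60.0%) the unadjusted p was under 0.05, beside 6.46% of all genes. The mean signal of the 10 was 9.12, 9.08, 9.09 and 8.93 in MDR1A KO tumors, against 8.80, 8.39, 9.00 and 8.37 in WT tumors. None of them was dim. WT tumor 3, the lowest for Cyp27a1, had the highest marker mean of the WT tumors. The part of macrophages in the Cyp27a1 difference was not tested. In bulk tissue, more cells of a type and more RNA per cell cannot be told apart.

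Cyp51, the lanosterol demethylase of cholesterol synthesis, had 9.02, 9.41, 9.25 and 9.02 in MDR1A KO tumors and 9.17, 9.47, 9.10 and 9.15 in WT tumors. The groups overlapped throughout, with a log2 fold change of −0.05 (95% interval −0.32 to 0.23). Of 19 other genes of sterol synthesis, 0 reached an unadjusted p under 0.05, and their median log2 fold change was 0.00 like that of all genes. Cyp51 is also the P450 gene nearest to Abcb1a on chromosome 5, which further carries Cyp2w1 and all 7 measured Cyp3a genes. The oxysterol hydroxylases Cyp39a1 and Cyp7b1 differed by 0.19 (95% interval −0.19 to 0.56) and 0.14 (−0.19 to 0.47). Cyp7a1, the entry enzyme of hepatic bile acid synthesis, was dim in all tumors, at 2.79 to 3.17 in MDR1A KO tumors and 2.98 to 3.33 in WT tumors. Of 13 genes of bile acid and oxysterol handling, 0 reached an unadjusted p under 0.05.

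**Figure D2:**
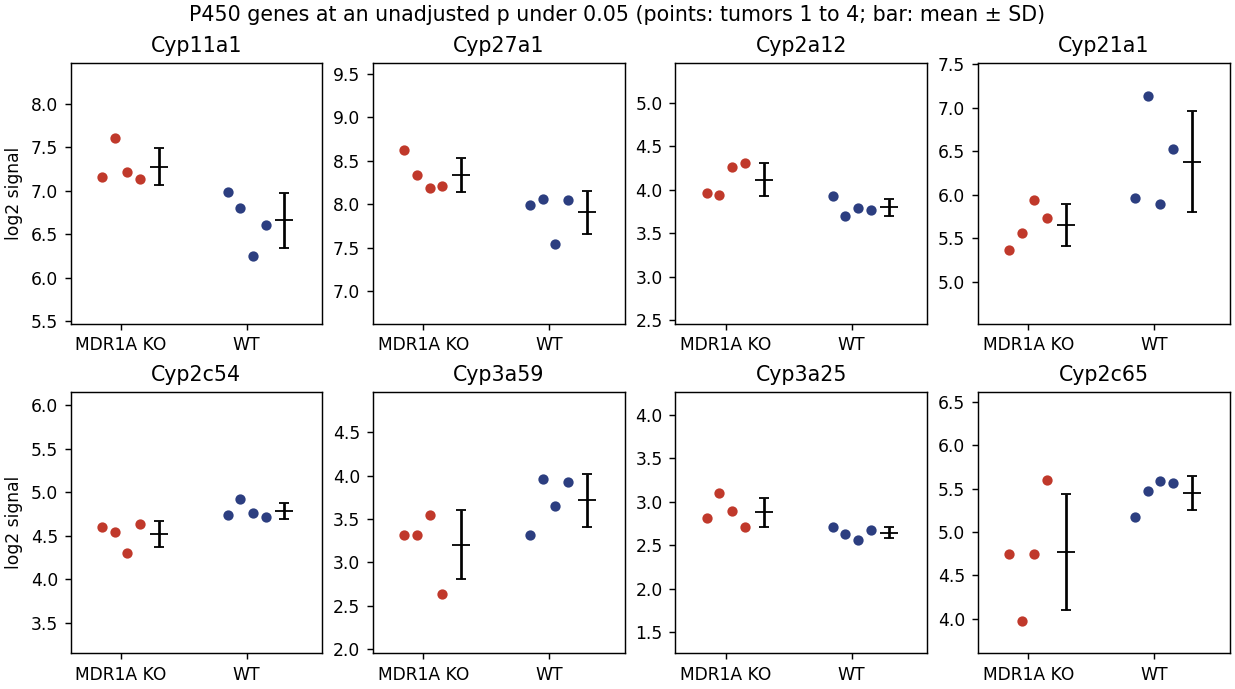
Signals (log2, vertical axis of 3 units in every panel) of the 8 P450 genes at an unadjusted p under 0.05, with MDR1A KO tumors 1 to 4 (red) left of WT tumors 1 to 4 (blue) and the mean ± SD of each group beside its points. The groups stand apart for Cyp11a1, Cyp27a1, Cyp2a12 and Cyp2c54 and overlap for the others, and for Cyp2c65 the 4 MDR1A KO tumors cover the range from 3.98 to 5.60.

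The enzymes of vitamin D and retinoic acid showed no difference at the threshold in the fit reported here. Cyp27b1, which activates vitamin D, had 4.50, 4.74, 4.76 and 4.73 in MDR1A KO tumors and 4.90, 4.77, 4.81 and 4.98 in WT tumors. These groups did not overlap, but the difference of −0.18 was small (SE 0.09, unadjusted p = 0.0839) and the probe set dim. Cyp24a1, which degrades active vitamin D and is a classical target of its receptor, had 4.43 to 4.75 in MDR1A KO tumors and 4.35 to 4.73 in WT tumors (log2 fold change 0.03, 95% interval −0.22 to 0.29). Cyp2r1, a vitamin D hydroxylase, differed by 0.06, and MDR1A KO tumor 3 stood out at 6.27 while the other tumors of that group had 5.37 to 5.51. Cyp26b1, which clears retinoic acid, had 5.44, 5.44, 5.59 and 5.70 in MDR1A KO tumors and 5.95, 5.70, 5.95 and 5.57 in WT tumors (log2 fold change −0.25, 95% interval −0.51 to 0.01, unadjusted p = 0.0541). Its unadjusted p was under 0.05 with arrays centred (0.0471), quantile-normalized again (0.0492) or weighted (0.0316), without MDR1A KO tumor 4 (0.0365) and without WT tumor 4 (0.0171).

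Genes that handle vitamin D and retinoids beside these enzymes were mixed. Trpv6, the epithelial calcium channel, had 8.94, 9.06, 8.34 and 8.38 in MDR1A KO tumors and 8.08, 7.26, 7.23 and 7.11 in WT tumors. Its groups did not overlap (log2 fold change 1.26, SE 0.24, limma, unadjusted p = 0.000505, adjusted p = 0.384). The study had already listed Trpv6, and Rbp2 below, among its changed genes. Of 8 vitamin D genes 2 reached an unadjusted p under 0.05, or 25.0%, beside 6.46% of all genes. The other, besides Trpv6, was Calb1, a calcium-binding protein, with a log2 fold change of 0.63 (SE 0.25). It was dim, at 4.67, 3.54, 4.00 and 4.83 in MDR1A KO tumors and 3.53, 3.57, 3.76 and 3.64 in WT tumors. These groups overlapped, the exact permutation p was 0.114, and the call was lost when any 1 of MDR1A KO tumors 1 and 4 or WT tumors 1, 2 and 4 was left out. The other 6 genes of the list did not reach that p, among them S100g, the intestinal calbindin (−0.18, SE 0.32), and Vdr, the vitamin D receptor (−0.07, SE 0.21), and 4 of the 8 had a lower mean in MDR1A KO tumors. Of 16 retinoid genes 14 had a lower mean in MDR1A KO tumors, beside 10917 of all 22180 genes. Their median log2 fold change was only −0.11, and some were nearly level, such as Rarg (−0.00), Crabp2 (−0.01) and Rara (−0.04). At an unadjusted p under 0.05 there were 2 of the 16, or 12.5%, beside 6.46% of all genes. An unadjusted p under 0.05 was reached by Rbp2, the intestinal retinol-binding protein, with a log2 fold change of −1.07 (SE 0.25) and means of 6.46 ± 0.36 in MDR1A KO tumors and 7.53 ± 0.48 in WT tumors (SD, n = 4 each), and by the retinol dehydrogenase Dhrs9, with −0.43 (SE 0.14).

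Family 1, whose genes are induced through the aryl hydrocarbon receptor (AHR), had 3 dim members. Cyp1a1, the most AHR-responsive of them, had 4.19, 4.23, 4.49 and 4.29 in MDR1A KO tumors and 4.67, 3.95, 4.27 and 4.41 in WT tumors (log2 fold change −0.03, 95% interval −0.36 to 0.31). Cyp1b1 was highest in WT tumor 1, at 5.49, while MDR1A KO tumors had 4.09 to 4.40 and the other WT tumors 4.08 to 4.75 (log2 fold change −0.41, SE 0.27). Of 7 further genes of the AHR battery, among them Nqo1 (−0.09) and Tiparp (−0.15), 0 reached an unadjusted p under 0.05.

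Family 2 is the largest, with 46 genes, a median log2 fold change of −0.08 and 3 genes at an unadjusted p under 0.05, which is 6.52%, beside 6.46% of all genes. It also held 17 of the 28 P450 genes whose signals ranged over at least 1 log2 unit between the 8 tumors. Cyp2e1, the enzyme that activates AOM, was dim, with 4.59, 4.29, 4.89 and 5.06 in MDR1A KO tumors and 4.56, 4.72, 4.95 and 4.74 in WT tumors (log2 fold change −0.03, 95% interval −0.41 to 0.34). Cyp2a12 had 3.96, 3.94, 4.26 and 4.31 in MDR1A KO tumors and 3.93, 3.70, 3.79 and 3.77 in WT tumors (log2 fold change 0.32, SE 0.11, unadjusted p = 0.0163). Cyp2c54 had 4.60, 4.54, 4.30 and 4.64 in MDR1A KO tumors and 4.74, 4.92, 4.76 and 4.72 in WT tumors (log2 fold change −0.26, SE 0.10, unadjusted p = 0.024). Both genes separated the groups at dim signals.

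The Cyp2c subfamily lies as a cluster on chromosome 19, with 14 genes measured and 3 above the lowest 33.3%: Cyp2c55, Cyp2c65 and Cyp2c68. Cyp2c55 and Cyp2c65 are enzymes of the mouse intestine that oxidise arachidonic acid. Cyp2c65 had 4.75, 3.98, 4.75 and 5.60 in MDR1A KO tumors and 5.17, 5.47, 5.59 and 5.56 in WT tumors. MDR1A KO tumors 1 to 3 lay below every WT tumor, and MDR1A KO tumor 4 lay above them. The log2 fold change was −0.67 (SE 0.29, unadjusted p = 0.0414, exact permutation p = 0.143), and the call was lost in 7 of 18 alternatives. Cyp2c68, named here after its values were seen, had 6.39, 5.60, 5.98 and 7.02 in MDR1A KO tumors and 5.29, 6.25, 7.47 and 6.33 in WT tumors (log2 fold change −0.09, 95% interval −1.07 to 0.90).

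The 2 probe sets of Cyp2c55 disagreed. The brighter one was nearly level, with 7.18, 7.08, 7.15 and 6.99 in MDR1A KO tumors and 6.65, 6.96, 7.05 and 7.01 in WT tumors (log2 fold change 0.18, SE 0.10, unadjusted p = 0.110). The second had 4.77, 4.39, 6.45 and 8.19 in MDR1A KO tumors and 4.72, 6.90, 9.45 and 8.57 in WT tumors. It spanned 5.06 log2 units over the 8 tumors, with MDR1A KO tumor 4 and WT tumors 3 and 4 high. Its log2 fold change was −1.46 (SE 1.09, unadjusted p = 0.211), and −2.36 (unadjusted p = 0.0351) without WT tumor 1. The part of the transcript that each probe set covers is unknown here.

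The start windows of the 3 bright Cyp2c genes are printed because these paralogs (Cyp2c55 in its second probe set) are the ones whose signals varied most between tumors within the cluster. They come from RefSeq (GRCm38.p6), at chr19:39006769-39007068 (plus strand) for Cyp2c55, chr19:39060756-39061055 (plus strand) for Cyp2c65 and chr19:39741052-39741351 (minus strand) for Cyp2c68. Capitals mark matches of letters to a motif and not located elements. They show the TATA box motif TATAAA in Cyp2c55 and Cyp2c65, and the hepatocyte nuclear factor motif CAAAGTCCA in Cyp2c65 and Cyp2c68. In Cyp2c68 they also show the AHR core GCGTG, read as CACGC on the other strand.
Cyp2c55: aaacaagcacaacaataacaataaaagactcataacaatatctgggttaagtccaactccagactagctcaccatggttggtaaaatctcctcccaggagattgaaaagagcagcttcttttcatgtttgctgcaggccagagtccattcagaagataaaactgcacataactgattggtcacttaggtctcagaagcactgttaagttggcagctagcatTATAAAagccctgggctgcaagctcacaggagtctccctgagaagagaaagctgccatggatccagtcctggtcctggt
Cyp2c65: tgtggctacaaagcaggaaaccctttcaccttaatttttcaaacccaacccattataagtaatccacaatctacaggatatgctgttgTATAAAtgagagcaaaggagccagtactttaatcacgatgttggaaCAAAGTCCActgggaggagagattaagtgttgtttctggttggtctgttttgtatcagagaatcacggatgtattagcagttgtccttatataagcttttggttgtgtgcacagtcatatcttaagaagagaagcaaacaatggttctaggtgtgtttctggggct
Cyp2c68: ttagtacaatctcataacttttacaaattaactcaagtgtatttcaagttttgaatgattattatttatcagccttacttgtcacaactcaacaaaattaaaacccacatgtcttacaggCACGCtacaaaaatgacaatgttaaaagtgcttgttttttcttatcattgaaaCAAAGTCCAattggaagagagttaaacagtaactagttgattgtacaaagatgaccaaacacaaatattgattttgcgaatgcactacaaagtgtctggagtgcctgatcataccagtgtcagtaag
TATAAA lay at −29 to −24 from the start in Cyp2c55 and at −162 to −157 in Cyp2c65. CAAAGTCCA, a site form of the factor HNF4A, lay at −116 to −108 in Cyp2c65 and at −77 to −69 in Cyp2c68.

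Searched on both strands, CAAAGTCCA was present in 0.475% of all 32851 windows, in 10.3% of the 78 P450 windows (8) and in 5 of 13 Cyp2c windows, which as paralogs share sequence. TATAAA was present in 13.6% of all windows and 35.9% of P450 windows, and GCGTG in 32.4% of all windows and 21.8% of P450 windows. Windows were found for 70 of the 90 genes. The 4 motifs do not contain one another. Hnf4a itself had 9.78, 9.85, 9.78 and 10.01 in MDR1A KO tumors and 9.53, 9.99, 10.07 and 10.01 in WT tumors (log2 fold change −0.04, SE 0.13), and of 12 nuclear receptors and related factors that regulate P450 genes 0 reached an unadjusted p under 0.05. Nr1i2, the xenobiotic receptor PXR, had a log2 fold change of −0.19 (SE 0.11).

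The Cyp2d subfamily, a cluster of 9 measured genes on chromosome 15, had 6 members with a range of at least 1 log2 unit over the 8 tumors. Cyp2d13 had 7.21, 6.48, 6.49 and 7.83 in MDR1A KO tumors and 6.65, 7.87, 8.73 and 7.13 in WT tumors (log2 fold change −0.59, SE 0.45, unadjusted p = 0.222). Cyp2d34 had 8.95, 8.91, 8.55 and 9.26 in MDR1A KO tumors and 8.59, 8.80, 9.57 and 9.28 in WT tumors (log2 fold change −0.14, 95% interval −0.65 to 0.37). Both genes were highest in WT tumor 3, and their groups overlapped. Cyp2d22 had 6.98, 7.01, 6.78 and 7.21 in MDR1A KO tumors and 6.13, 5.92, 7.53 and 6.44 in WT tumors. The log2 fold change was 0.49 (SE 0.30, unadjusted p = 0.138). WT tumor 3 was the highest of all 8. Without it the MDR1A KO tumors lay above all remaining WT tumors, at 0.83 (SE 0.15, unadjusted p = 0.000413). This was the only single omission with a p under 0.05, and the highest p was 0.347. The mean signal of 6 smooth muscle markers, none dim, was 10.25 to 10.69 in MDR1A KO tumors. In WT tumors it was 9.95, 8.60, 10.99 and 8.36, also highest in tumor 3. Each of the 6 markers reached a p under 0.05 only without WT tumor 3. Among WT tumors Cyp2d22 was lowest in tumor 2 and these markers in tumor 4. Their part in Cyp2d22 was not tested.

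**Figure D3:**
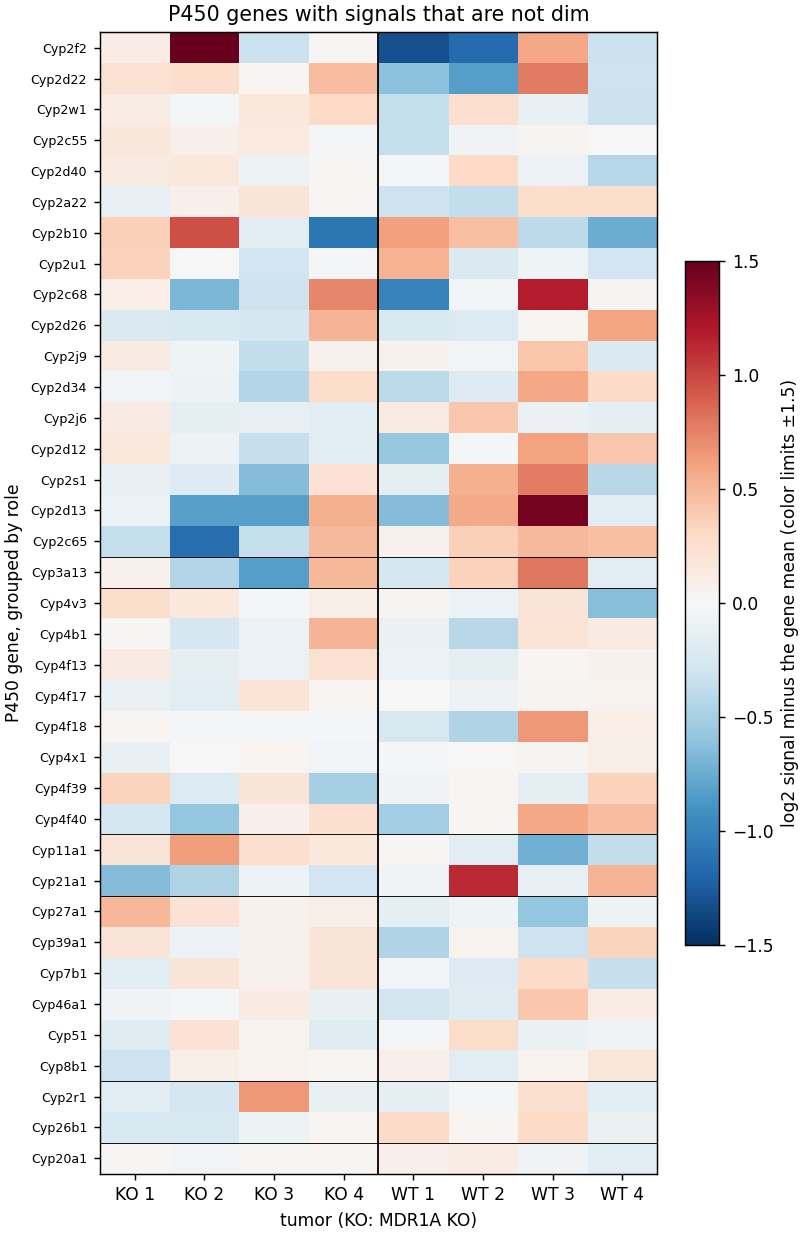
Each row is 1 of the 37 P450 genes above the lowest 33.3% by signal, ordered by role (lines part the roles) and within a role by log2 fold change. Colors give the log2 signal of each tumor minus the mean of the gene over the 8 tumors, with MDR1A KO tumors left of WT tumors and colors ending at ±1.5; Cyp2f2 in MDR1A KO tumor 2 (8.73) and Cyp2d13 in WT tumor 3 (8.73) are among the deepest, and few rows keep 1 color per genotype.

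Cyp2f2, best known from the club cells of the mouse lung, had the largest log2 fold change of the family. Its signals were 6.43, 8.73, 5.99 and 6.33 in MDR1A KO tumors and 5.00, 5.16, 6.90 and 6.00 in WT tumors. MDR1A KO tumor 2 alone was above 7, and the groups overlapped. The mean signal of 5 squamous epithelium markers, 4 of them not dim, was also highest in that tumor, at 5.90, 7.04, 6.02 and 5.85 in MDR1A KO tumors and 6.02, 5.94, 5.96 and 6.58 in WT tumors. Krt13 was 8.32 there and 6.33 to 6.81 in the other tumors, and Krt14 was also highest there, at 8.84. The other markers were not. Krt4 was 7.58 there but 7.74 in WT tumor 4, where Krt14 was 8.32 and Cyp2f2 only 6.00. Trp63, the dim marker, was highest in MDR1A KO tumor 1, at 5.38. Lor was 5.09 in MDR1A KO tumor 2, and all MDR1A KO tumors (5.05 to 5.13) were below every WT tumor (5.17 to 5.46). The part of these cells in the Cyp2f2 signal was not tested. The log2 fold change was 1.10 (SE 0.62, 95% interval −0.28 to 2.49, unadjusted p = 0.106), 0.49 without MDR1A KO tumor 2 (unadjusted p = 0.276) and 1.48 without WT tumor 3 (unadjusted p = 0.040). The second Cyp2f2 probe set showed no such tumor, with 4.84, 5.47, 5.26 and 5.37 in MDR1A KO tumors and 5.24, 5.27, 5.19 and 5.41 in WT tumors.

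Cyp2b10, the classical target of the receptor CAR and also named after its values were seen, had 7.33, 7.93, 6.81 and 5.88 in MDR1A KO tumors and 7.58, 7.42, 6.57 and 6.22 in WT tumors (log2 fold change 0.04, 95% interval −0.95 to 1.03). In both genotypes it was lowest in tumor 4, although the numbers are not known to pair the mice. Cyp2s1, an epithelial P450, had 7.75, 7.67, 7.21 and 8.07 in MDR1A KO tumors and 7.71, 8.39, 8.63 and 7.44 in WT tumors (log2 fold change −0.37, SE 0.28). Cyp2j6, an arachidonic acid oxygenase of the intestine, had 7.85 to 8.13 in MDR1A KO tumors and 7.86 to 8.42 in WT tumors (log2 fold change −0.15, 95% interval −0.45 to 0.15).

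Of the 7 Cyp3a genes only Cyp3a13, the main Cyp3a of the mouse intestine, was above the lowest 33.3%. It had 5.46, 4.96, 4.57 and 5.90 in MDR1A KO tumors and 5.14, 5.75, 6.19 and 5.24 in WT tumors (log2 fold change −0.36, SE 0.31, unadjusted p = 0.281). The highest and the lowest tumor were WT tumor 3 and MDR1A KO tumor 3. Cyp3a11, the main hepatic form, had 3.32 to 4.21 in MDR1A KO tumors and 3.23 to 4.33 in WT tumors. At dim signals Cyp3a59 had 3.32, 3.31, 3.55 and 2.64 in MDR1A KO tumors and 3.31, 3.96, 3.65 and 3.93 in WT tumors (log2 fold change −0.51, SE 0.21, unadjusted p = 0.0371). Cyp3a25 had 2.81, 3.10, 2.89 and 2.71 in MDR1A KO tumors and 2.71, 2.63, 2.56 and 2.67 in WT tumors (log2 fold change 0.24, SE 0.10, unadjusted p = 0.0383). Members of the Cyp2c, Cyp2d, Cyp3a, Cyp4a and Cyp4f clusters are alike in sequence, so their probe sets may take up signal from one another.

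None of the 15 family 4 genes reached an unadjusted p under 0.05, and their median log2 fold change was −0.02. Cyp4f13, a fatty acid hydroxylase, had 7.53, 7.27, 7.32 and 7.64 in MDR1A KO tumors and 7.32, 7.26, 7.44 and 7.47 in WT tumors (log2 fold change 0.07, 95% interval −0.17 to 0.31). Cyp4v3 had 7.29 to 7.57 in MDR1A KO tumors and 6.67 to 7.50 in WT tumors (log2 fold change 0.25, SE 0.17), with WT tumor 4 the lowest. Cyp4f16 and Cyp4b1 differed by −0.03 and 0.09. Cyp20a1, a P450 of unknown substrate, had 8.60 to 8.67 in MDR1A KO tumors and 8.47 to 8.75 in WT tumors, a difference of 0.01.

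Among 11 other genes of arachidonic acid and epoxide metabolism, 3 were lower in MDR1A KO tumors at an unadjusted p under 0.05. That is 27.3% of the list, beside 6.46% of all genes in either direction. The list was chosen with earlier results known, and the study had already reported Ptgs2 as lower. Ptgs2, the inducible cyclooxygenase, had 8.23, 7.78, 8.99 and 9.59 in MDR1A KO tumors and 10.64, 9.45, 10.13 and 10.53 in WT tumors (log2 fold change −1.54, SE 0.39, unadjusted p = 0.00328). Alox15, a lipoxygenase, and Acsl4, which activates arachidonic acid, had log2 fold changes of −0.95 (SE 0.26) and −0.37 (SE 0.15). Of 13 genes of electron transfer to P450 enzymes and of heme synthesis and breakdown, 0 reached an unadjusted p under 0.05. The mean signal of these 13 was 8.03 to 8.08 in MDR1A KO tumors and 8.02 to 8.23 in WT tumors. Hmox1, a gene of heme breakdown, had the largest change of them (log2 fold change −0.80, SE 0.47, limma, unadjusted p = 0.123). It had 7.17, 7.09, 7.05 and 6.81 in MDR1A KO tumors and 9.35, 7.17, 8.06 and 6.74 in WT tumors. P450 reductase (Por) was not analysed here. Fdx1, the ferredoxin that serves Cyp11a1 and Cyp27a1, had a log2 fold change of −0.18 (SE 0.09). Over all 107 genes of the 9 partner lists 2 were higher and 5 lower at this threshold, which is 6.54%, beside 6.46% of all genes, and none passed the adjusted one.

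On these arrays the spread between tumors was wider for P450 genes than for genes at large. The range over the 8 tumors had a median of 0.77 log2 units for P450 genes and 0.51 for all genes. It was at least 1 in 28 P450 genes (31.1%), against 11.0% of all genes. Above the lowest 33.3% the shares were 40.5% of P450 genes and 12.0% of all genes. These shares are descriptions of 1 family, whose paralogs share probe sequence, and were not tested.

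The tumors with high values were partly the same ones. WT tumor 3 was the highest of the 8 for 22 P450 genes (24.4%, beside 15.3% of all genes) and WT tumor 4 for 19 (21.1%, beside 16.5%). Among MDR1A KO tumors, tumor 4 was most often the highest, for 12 genes (13.3%, beside 10.0%). The mean signal of 8 markers of surface colonocytes, the differentiated absorptive cells, was 8.32, 8.11, 8.45 and 9.51 in MDR1A KO tumors and 8.24, 8.61, 9.72 and 9.55 in WT tumors. MDR1A KO tumor 4 and WT tumors 3 and 4 were the 3 highest there too, as they were for the second Cyp2c55 probe set, and the 2 lowest Cyp2b10 signals were in MDR1A KO tumor 4 and WT tumor 4. None of the 8 markers was dim, and 7 of 8 had a lower mean in MDR1A KO tumors. Krt20 (−0.65, SE 0.19) alone reached an unadjusted p under 0.05, which is 12.5% of the 8, beside 6.46% of all genes. The pattern was not particular to colonocytes. WT tumor 3 was also highest for the smooth muscle (10.99), fibroblast (10.54), B and plasma cell (8.52) and endothelial (7.89) marker means. It was not the highest for the macrophage, squamous and epithelial means. For 5 hepatocyte markers, 1 of them dim, the highest means were in MDR1A KO tumor 4 (6.18) and WT tumors 3 (6.37) and 4 (6.66). The part of any of these cells in the P450 values was not tested.

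**Figure D4:**
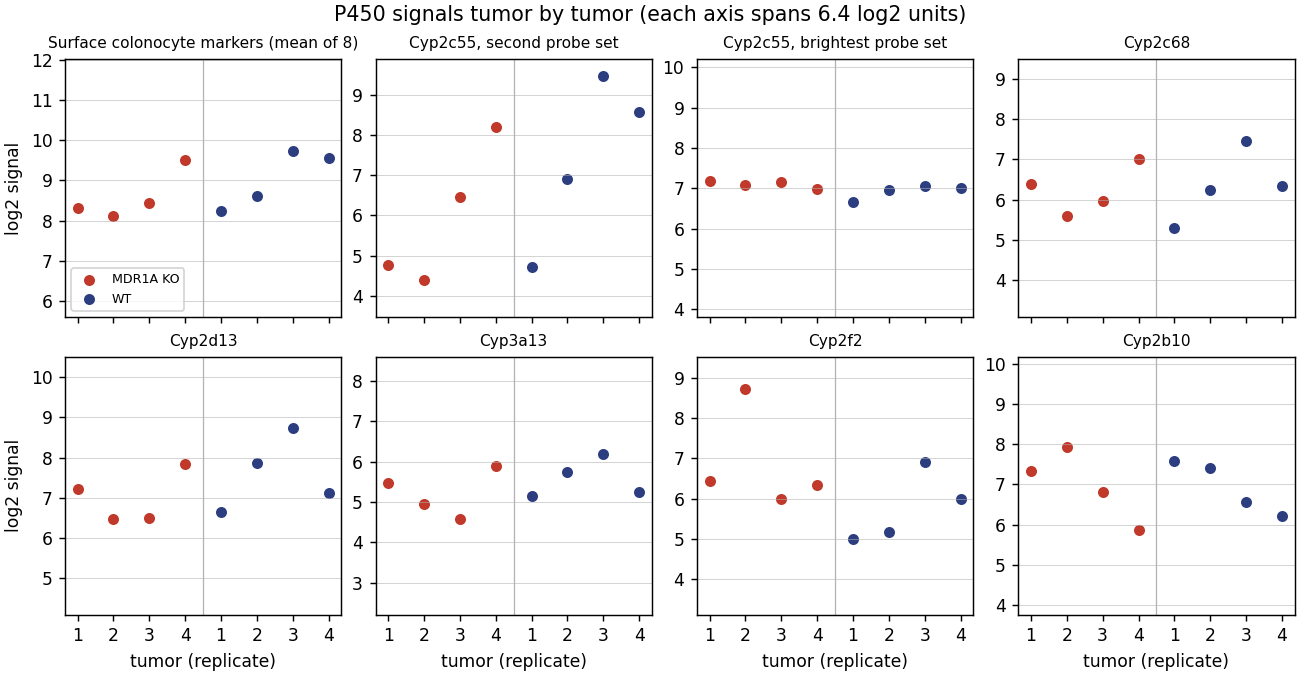
Log2 signals of single tumors (points; MDR1A KO tumors 1 to 4 in red, left, WT tumors 1 to 4 in blue, right) for the mean of 8 surface colonocyte markers, both Cyp2c55 probe sets and 5 further P450 genes, on axes of equal span. The second Cyp2c55 probe set runs from 4.39 to 8.19 in MDR1A KO tumors and from 4.72 to 9.45 in WT tumors while the brightest stays between 6.65 and 7.18, and the spread within each genotype is wide for each gene shown except that probe set.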

How the data were processed

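Total RNA of 8 colonic tumors was hybridised to GeneChip Mouse Gene 2.0 ST arrays. The deposited values are log2 probe set signals that the authors computed by RMA in Affymetrix Expression Console 1.4, so probe-level intensities were not seen here, and quantile normalization removes any shift shared by all genes. Neither the build nor the annotation release behind the probe sets is stated in the sources used here. Names came from the platform annotation: of 41345 probe sets 25341 had a symbol (23521 had 1, 1820 several) and 16004 had none, and updating symbols through the reference table (GRCm38.p6) changed 0 of them.

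MDR1A KO and WT tumors were compared with limma 3.58.1 in R 4.3.3 (lmFit, eBayes, two-sided) over the 25341 probe sets that had a symbol; p-values were adjusted by Benjamini-Hochberg over that whole table, with a threshold of 0.05. Background shares were counted over 22180 genes. The methods' criterion was an unadjusted p under 0.05 with at least a 2-fold change. The members and gene lists were chosen with earlier results of these data known. Genes named are members at an unadjusted p under 0.05, the 10 brightest, the 3 largest changes each way, 18 fixed by role, members whose second probe set went the other way, up to 4 partner genes per list at that p, and Abcb1a, 32 P450 genes in all; Cyp2c68, Cyp2b10 and the other genes given values were added after their values were seen. Alternatives were another test, other probe set choices, scalings, variance models, array weights, a replicate block, and each tumor left out. The fit was tested on simulated data. The 4 arrays per group limit the precision. With 1 tumor and 1 array per mouse, the p-values rest on variation in which mouse, tumor and array cannot be told apart. Tables and figures used Python 3.11.15, pandas 2.3.3, scipy 1.17.1 and matplotlib 3.10.9.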

Additional observations from a re-analysis of the deposited data

Results flagged for a closer look

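Among the named P450 genes a single tumor stood far from the other tumors of its group in 6 cases, of 64 groups of 4 examined, where chance alone flags about 1 in 20. Cyp2f2 was 8.73 in MDR1A KO tumor 2, and the nearest tumor of that group had 6.43. Cyp2r1 was 6.27 in MDR1A KO tumor 3 (nearest 5.51), Cyp2j6 was 8.13 in MDR1A KO tumor 1 (nearest 7.89), Cyp27b1 was 4.50 in MDR1A KO tumor 1 (nearest 4.73) and Cyp20a1 was 8.60 in MDR1A KO tumor 2 (nearest 8.66). Cyp27a1 was 7.54 in WT tumor 3, with the nearest WT tumor at 7.99. The gap of Cyp20a1 is small in size, since the other tumors of its group nearly coincide.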

How the results depend on the processing

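No P450 gene had an adjusted p under 0.05 in limma or in the methods' t-test under any alternative, and the lowest adjusted p of a member in any of them was 0.200, while 8 genes had an unadjusted p under 0.05. That count was 5 with the methods' t-test, 4 with dim probe sets left out and 7 to 12 with 1 tumor left out, 12 without WT tumor 1. Centring the arrays gave 3 higher and 6 lower genes in place of 4 and 4. Past the 2-fold criterion the count was 0, but 3 with a 1.5-fold threshold and 0 to 1 with 1 tumor left out, the 1 being Cyp2f2 without WT tumor 3. The 7 partner genes were 5 to 9 in the other alternatives and 6 to 12 with 1 tumor left out, 12 without WT tumor 3. The median log2 fold change ran from −0.08 to 0.00. Cyp27a1 stayed at an unadjusted p under 0.05 in all 18 alternatives and Cyp2a12 in all 17 run for it. Cyp11a1 stayed so in the same 18, at 0.35 as the mean of its probe sets (limma, unadjusted p = 0.0391), but its second probe set lost the call at 0.09 (limma, unadjusted p = 0.672). Cyp26b1 gained the call in 5 alternatives. Cyp21a1 lost the call in 2, Cyp2c54 in 2, and Cyp2c65, Cyp3a25 and Cyp3a59 in 7 each.

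Signs turned for Cyp20a1 (−0.01 with arrays centred, quantile-normalized again or weighted), Cyp4f16 (0.01 with array weights), Cyp2c55 (−0.64 as the mean of its probe sets, −1.46 for the second) and Cyp2f2 (−0.04 for the second). The second probe set and a wider symbol pattern were chosen after seeing the data. With 1 tumor left out, signs also turned for small changes: Cyp11b1 (−0.14 to 0.04), Cyp1a1 (−0.15 to 0.09), Cyp20a1 (−0.04 to 0.05), Cyp24a1 (−0.03 to 0.09), Cyp2d34 (−0.30 to 0.03), Cyp2e1 (−0.15 to 0.10), Cyp2r1 (−0.15 to 0.15), Cyp4b1 (−0.06 to 0.19), Cyp4f13 (−0.00 to 0.12), Cyp4f16 (−0.17 to 0.04), Cyp51 (−0.12 to 0.04). The cause was not tested.

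Same-numbered tumors deviated together at 0.1083, 0.02012, −0.1011 and 0.3533, and differently numbered ones at −0.3192 to 0.2909. The value of the tumors numbered 4 was the highest of all pairs. Such correlations cannot show whether the numbers pair the mice, since unpaired mice can deviate alike and paired ones need not. With the replicate number as a block, 10 P450 genes had an unadjusted p under 0.05 and 0 an adjusted one.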
